A study of Homo sapiens with 12 samples.

Results

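Small nucleolar RNAs (snoRNAs) and small Cajal body RNAs (scaRNAs) were followed through RNA immunoprecipitation (RIP) of TDP43 and SRSF3 in a breast cancer cell line. They were taken as every gene whose symbol starts with SCARNA, SNORA or SNORD and whose level reached 1 FPKM (fragments or reads scaled by gene length and library depth) in at least 1 of the 4 RIP and input libraries. This gave 108 of the 850 genes with such symbols, in a table of 60675 genes. They comprised 13 of 56 scaRNA genes, 49 of 424 H/ACA snoRNA genes (symbols in SNORA) and 46 of 370 C/D snoRNA genes (symbols in SNORD). Of the other genes with such symbols, 481 were listed at 0 in all 4 libraries and 261 were above 0 but under 1 FPKM. Just under that level stood SNORA80B (highest value 0.993 FPKM), SNORD50B (0.992 FPKM) and SNORA8 (0.986 FPKM), and just over it SNORD121B (1.00 FPKM), SNORD94 (1.01 FPKM) and SNORD83A (1.02 FPKM). The 108 genes lay at 106 loci, because SCARNA10 and SNORD3D are each listed under 2 overlapping identifiers. The choice used the same FPKM values from which RIP and input are compared here, so counts and medians over these RNAs are descriptions and carry no test.

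All libraries are from MDA-MB231 cells, a long-established line of triple-negative breast cancer. RNA bound to Flag-tagged TDP43 or Flag-tagged SRSF3 was recovered with a Flag antibody from cells overexpressing that protein, and each RIP has an input RNA library from the cells overexpressing the same protein, with 1 library each. In separate stable lines made with lentivirus, a short hairpin RNA against TDP43 (sh_TDP43), against SRSF3 (sh_SRSF3) or a control hairpin (sh_control) was expressed, with 2 libraries each. The labels name 1 hairpin per target and do not say whether the libraries of a group came from separate cultures. A RIP from cells without a tagged protein was not analysed here, so RNA held by the antibody or beads alone cannot be told apart from RNA held by the protein.

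Box C/D RNAs carry the short C and D boxes, assemble with fibrillarin, NOP56, NOP58 and SNU13, and guide the methylation of ribose in other RNAs. H/ACA RNAs end in an ACA triplet placed shortly before the 3′ end, assemble with dyskerin (DKC1), GAR1, NHP2 and NOP10, and guide the conversion of uridine to pseudouridine. Most snoRNAs act on ribosomal RNA in the nucleolus, while scaRNAs act on spliceosomal snRNAs in Cajal bodies and can carry C/D boxes, H/ACA boxes or both. Most human snoRNAs are released from introns of host genes. TDP43 is an RNA-binding protein that prefers UG-rich sequence and has been reported to bind a group of C/D scaRNAs, and SRSF3 is an SR protein of mRNA splicing and export.

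The boxes that set the classes apart can be seen in 3 of the RNAs, 1 per class, shown for their boxes, not for their recovery. Sequence (build GRCh38.p14) came from a RefSeq promoter entry for SNORD58B and from microRNA hairpin entries that overlap SNORA84 and SCARNA16. Capitals mark, in the C/D snoRNA SNORD58B (chr18:49491664-49491729, minus strand, whole RNA of 66 bases, as DNA letters), TGATG of the C box and CTGA of the D box. In the H/ACA snoRNA SNORA84 (chr9:92292461-92292547, minus strand, bases 47 to 133 of 133) they mark the ACA box, and in the H/ACA scaRNA SCARNA16 (chr17:77089417-77089493, plus strand, bases 111 to 187 of 187) the ACA box and UGAG, the letters of the CAB box that holds an H/ACA scaRNA in Cajal bodies.
SNORD58B: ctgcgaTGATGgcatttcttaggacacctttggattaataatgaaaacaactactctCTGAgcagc
SNORA84: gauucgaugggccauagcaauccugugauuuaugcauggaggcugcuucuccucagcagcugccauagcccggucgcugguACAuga
SCARNA16: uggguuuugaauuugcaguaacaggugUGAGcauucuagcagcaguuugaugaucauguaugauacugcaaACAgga
Only the strand of the RNA was searched, and the marked letters do not overlap each other. UGAG was marked by its letters alone, and whether it is a CAB box in the folded RNA was not tested. Among windows of the same length from 35116 RefSeq promoter entries, TGATG stood in 4.59%, CTGA in 25.3%, TGAG in 28.2%, and ACA at the same distance from the end in 1.44% for SNORA84 and 1.43% for SCARNA16. In the RIP of TDP43, SNORD58B had 13.1 FPKM against 13.5 FPKM in its input, and in that of SRSF3 19.6 FPKM against 31.1 FPKM. SNORA84 had 0.121 FPKM in the TDP43 RIP, 0.556 FPKM in its input, 0.271 FPKM in the SRSF3 RIP and 1.04 FPKM in its input, so it is included through the SRSF3 input alone.

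Depth was inferred from the commonest value of FPKM times length among short genes, taken as 1 read. It was 27.7 M reads in each RIP, 28.4 M in the TDP43 input and 28.2 M in the SRSF3 input. At that depth 1 read on an RNA of 100 bases is worth 0.352 to 0.361 FPKM, so many of these RNAs rest on few reads, and only 50 of the 108 had 10 or more read equivalents over the TDP43 RIP and its input (60 for SRSF3). Median lengths were 270 bases for the scaRNAs, 134 for the H/ACA snoRNAs and 90.5 for the C/D snoRNAs. TARDBP, the gene of TDP43, was at 80.4 FPKM in the TDP43 RIP and 14.2 FPKM in its input, against 1.48 and 1.76 FPKM in the SRSF3 RIP and its input, so its RNA was 8.05-fold higher in the TDP43 input than in the SRSF3 input. SRSF3 was at 91.3 FPKM in the SRSF3 RIP and 54.9 FPKM in its input, and at 83.4 and 29.3 FPKM in the TDP43 RIP and its input. Of markers named for this line, VIM, CD44, KRT8 and KRT18 reached 1 FPKM in all 4 libraries (4.90 to 1301 FPKM). Of 5 genes known to be low in it, ESR1 and PGR were listed at 0, GATA3 and CDH1 stayed under 1 FPKM and EPCAM was at 1.27 to 3.85 FPKM. All of PTPRC, CD3E, HBB, ALB and COL1A1, which mark other cell types, stayed under 1 FPKM in these 4 libraries.

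The first question was which of these RNAs were recovered with TDP43. A group of 3 C/D scaRNAs stood far above the other scaRNAs: SCARNA2, SCARNA7 and SCARNA9 were 19.0-fold, 27.4-fold and 94.4-fold higher in the TDP43 RIP than in its input. SCARNA2 had the highest FPKM of all genes in that RIP. As a class the scaRNAs summed to 10040 FPKM in the TDP43 RIP, 5.41% of the library's total FPKM, against 1128 FPKM and 0.223% in its input. SCARNA2 alone made up 8115 of the 10040 FPKM, and without SCARNA2, SCARNA7 and SCARNA9 the sum was 284 FPKM and 0.153% in the TDP43 RIP, against 643 FPKM and 0.127% in its input.

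SCARNA2, which guides methylation of the U2 snRNA and is transcribed from its own gene (ENSG00000278249; GRCh38 chromosome 1, 109100193 to 109100612, plus strand, 420 bases), had 8115 FPKM in the TDP43 RIP and 428 FPKM in its input. The ratio of 19.0 had a 95% exact binomial interval of 18.5 to 19.5 on the read equivalents, which covers counting error only, as do all such intervals here. SCARNA7, a guide for the U1 snRNA in an intron of the importin gene KPNA4 (chromosome 3, 160514907 to 160515236, minus strand, 330 bases), had 1539 FPKM in the TDP43 RIP and 56.3 FPKM in its input. Its ratio of 27.4 had an interval of 25.1 to 29.9. It ranked as number 5 among all genes of the TDP43 RIP by FPKM, against number 426 in its input.

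SCARNA9, another guide of the U2 snRNA (chromosome 11, 93721513 to 93721865, plus strand, 353 bases), had 102 FPKM in the TDP43 RIP and 1.08 FPKM in its input. The input value stands for 10.9 read equivalents, so the interval of the 94.4-fold ratio ran from 52.3 to 191. SCARNA9 is known to be cut into shorter RNAs, and those are listed inside its span under their own identifiers. Of these, snoU2_19 was at 7.11 FPKM in the TDP43 RIP and 2.91 FPKM in its input, and snoU2-30 at 0.291 and 0.0650 FPKM. On the log2 scale with 1 FPKM added to each value, which is used for all differences below, these 3 scaRNAs were at 4.24 (SCARNA2), 4.75 (SCARNA7) and 5.63 (SCARNA9). By that difference they ranked 14, 7 and 4 among 11530 genes at 1 FPKM or more.

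**Figure D1:**
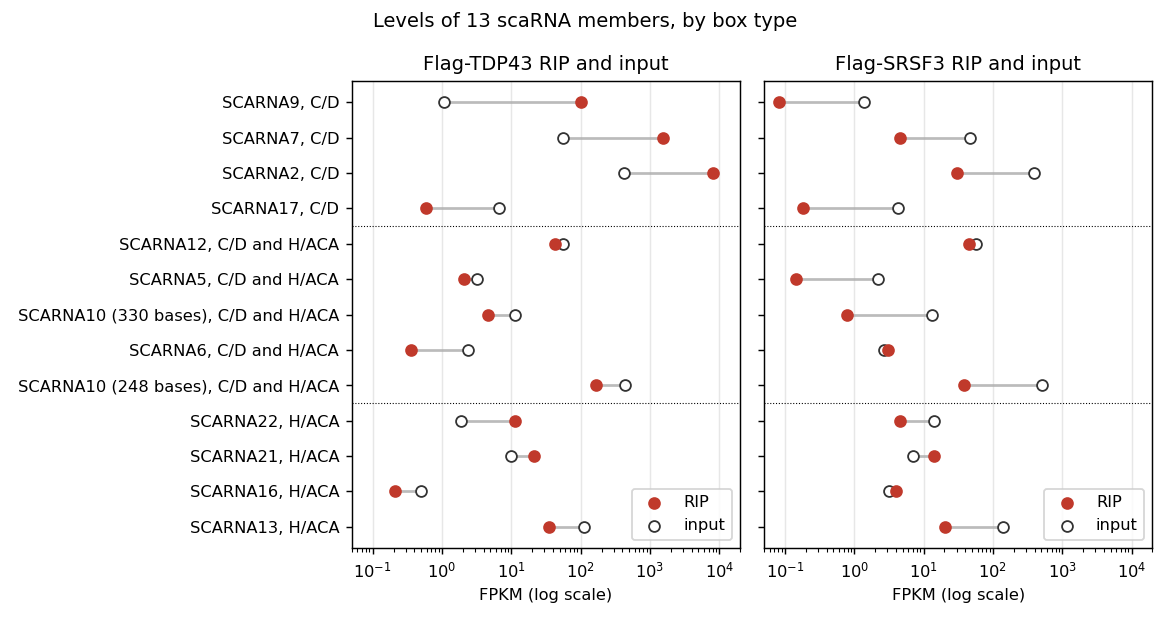
FPKM on a log scale for the 13 scaRNA genes, grouped by box type, in each RIP (filled points) and its input (open points), 1 library each. SCARNA9, SCARNA7 and SCARNA2 lie to the right of their input for TDP43 and to the left of it for SRSF3.

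The same RNAs were scarce in the SRSF3 RIP. SCARNA2 had 30.1 FPKM there and 393 FPKM in its input, which is 13.1-fold lower in the RIP (interval 11.7 to 14.6). SCARNA7 had 4.59 FPKM in the SRSF3 RIP and 46.4 FPKM in its input, 10.1-fold lower (7.36 to 14.2). SCARNA9 had 0.0811 FPKM in the SRSF3 RIP and 1.403 FPKM in its input, or 0.793 and 13.95 read equivalents, which leaves its interval at 2.24-fold to 1669-fold lower. Their inputs were close to each other, since the TDP43 input less the SRSF3 input came to 0.12, 0.27 and -0.21 log2 for SCARNA2, SCARNA7 and SCARNA9.

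The other scaRNAs differed from these 3. The remaining C/D scaRNA, SCARNA17, which guides the U4 snRNA, had 0.594 FPKM in the TDP43 RIP and 6.598 FPKM in its input (log2 difference -2.25), and 0.181 FPKM in the SRSF3 RIP and 4.28 FPKM in its input (-2.16). It was thus lower in both RIPs, on 2.37 and 0.722 read equivalents. The 5 scaRNA identifiers that carry both C/D and H/ACA boxes had a median log2 difference of -1.14 for TDP43 (-1.39 to -0.38). For SRSF3 their median was -1.48 (-3.71 to 0.13). Among them SCARNA10, a guide of the U5 snRNA in NCAPD2, had 167 FPKM in the TDP43 RIP and 439 FPKM in its input, and 38.3 FPKM in the SRSF3 RIP and 514 FPKM in its input, under its identifier of 248 bases. The identifier of 330 bases that overlaps it was at 4.67 and 11.5 FPKM for TDP43 and at 0.795 and 13.1 FPKM for SRSF3, and reads shared between both cannot be told apart. SCARNA10 thus enters the 5 under both identifiers. The TDP43 median of -1.14 is the value of the identifier of 330 bases. SCARNA12, in PHB2, was nearly level in both RIPs, with 42.7 FPKM in the TDP43 RIP and 55.8 FPKM in its input (-0.38), and 45.7 FPKM in the SRSF3 RIP and 57.6 FPKM in its input (-0.33, or 0.09 in the second table described below).

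SCARNA5 and SCARNA6 lie in introns of the same gene, ATG16L1, and differed from each other. SCARNA5 had 2.06 FPKM in the TDP43 RIP and 3.24 FPKM in its input, and 0.146 FPKM in the SRSF3 RIP and 2.20 FPKM in its input. SCARNA6 had 0.353 FPKM in the TDP43 RIP and 2.39 FPKM in its input, and 3.02 FPKM in the SRSF3 RIP and 2.68 FPKM in its input. SCARNA5 was thus the lower of the pair in the SRSF3 RIP and SCARNA6 the lower in the TDP43 RIP, each on under 3 read equivalents.

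The 4 H/ACA scaRNAs had a median log2 difference of 0.35 for TDP43 and -0.58 for SRSF3. SCARNA13, which lies in SNHG10, was lower in both RIPs than in their inputs, with 34.8 FPKM in the TDP43 RIP and 112 FPKM in its input, 3.23-fold lower (2.81 to 3.72), and 20.5 FPKM in the SRSF3 RIP and 139 FPKM in its input, 6.79-fold lower (5.74 to 8.08). SCARNA21, in CHD3, was the 1 scaRNA with a ratio over 2 in both RIPs by FPKM. It had 21.0 FPKM in the TDP43 RIP and 9.96 FPKM in its input, 2.11-fold higher (1.43 to 3.18). With SRSF3 it had 14.3 FPKM in the RIP and 6.97 FPKM in its input, 2.05-fold higher (1.28 to 3.38). With 1 FPKM added, the SRSF3 difference of SCARNA21 was 0.94 and is not counted as 2-fold below. SCARNA22, in WHSC1, had 11.4 FPKM in the TDP43 RIP and 1.86 FPKM in its input (2.11), and 4.55 FPKM in the SRSF3 RIP and 13.9 FPKM in its input (-1.43). SCARNA16 had 0.213 FPKM in the TDP43 RIP and 0.501 FPKM in its input, and 4.03 FPKM in the SRSF3 RIP and 3.19 FPKM in its input, with intervals that span equality in both.

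Counted by a 2-fold difference after adding 1 FPKM (1 or more on the log2 scale), 5 of 13 scaRNAs were higher and 5 lower in the TDP43 RIP than in its input. Among all 11530 genes at 1 FPKM or more, 14.7% were higher and 12.1% lower by that rule. Of the 49 H/ACA snoRNAs 6 were higher and 11 lower, and of the 46 C/D snoRNAs 7 were higher and 7 lower. The scaRNA median was -0.38, that of H/ACA snoRNAs -0.27 and that of C/D snoRNAs 0.04, while the median of all genes was 0. The scaRNA median hides a wide range, from -2.25 to 5.63. Without SCARNA2, SCARNA7 and SCARNA9, a subset taken after their values were seen, the other 10 scaRNAs had a median of -0.80.

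In the SRSF3 RIP 0 of 13 scaRNAs were higher and 9 were lower than in its input, against 13.7% higher and 6.32% lower among all genes. Of the H/ACA snoRNAs 11 were higher and 11 lower, and of the C/D snoRNAs 4 were higher and 17 lower. Medians were -1.48 for scaRNAs, -0.06 for H/ACA snoRNAs and -0.41 for C/D snoRNAs, beside 0.15 for all genes. The scaRNAs summed to 166 FPKM in the SRSF3 RIP and 1198 FPKM in its input, the C/D snoRNAs to 245 and 587 FPKM, and the H/ACA snoRNAs to 186 and 298 FPKM. All 3 class sums were thus lower in the SRSF3 RIP than in its input. As shares of the library's total FPKM, scaRNAs stood at 0.0587% in the SRSF3 RIP and 0.226% in its input. C/D snoRNAs stood at 0.0865% and 0.110%. The H/ACA share was higher in the RIP, at 0.0658% against 0.0561% in the input.

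Short RNAs outside these classes form a nearer background. Among 532 other genes of 500 bases or shorter, 18% were higher and 22% lower in the TDP43 RIP, and 19.2% were higher and 17.5% lower in the SRSF3 RIP, with medians of -0.09 and 0.00. Those genes held 8.89% of the total FPKM in the TDP43 RIP against 73.0% in its input, and 31.5% in the SRSF3 RIP against 74.2% in its input. RMRP, the RNA of RNase MRP and a nucleolar RNA of 264 bases, had 441 FPKM in the TDP43 RIP and 6799 FPKM in its input, and 1825 FPKM in the SRSF3 RIP and 8642 FPKM in its input. The part of this shift in total composition in the values above was not tested. TERC, the telomerase RNA, which has an H/ACA end and gathers in Cajal bodies, stayed under 1 FPKM in all 4 libraries (0.277 FPKM in the TDP43 RIP and 0.0571 FPKM in its input, 0.889 FPKM in the SRSF3 RIP and 0.0533 FPKM in its input).

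**Figure D2:**
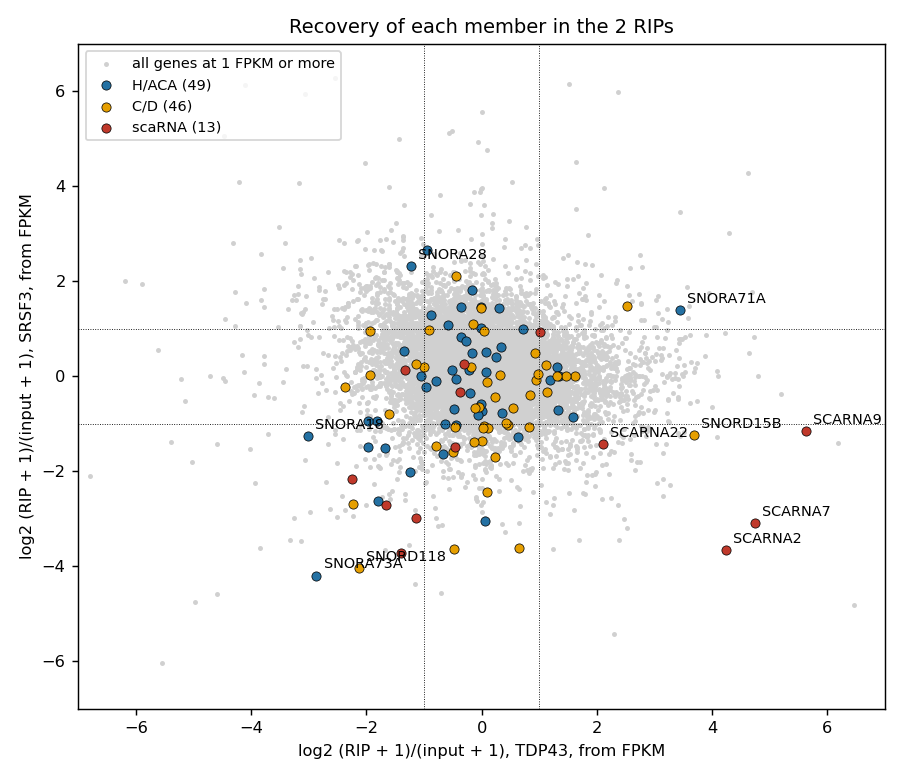
Log2 of RIP over input after adding 1 FPKM, for TDP43 (x axis) and SRSF3 (y axis); coloured points are the 108 RNAs by class, grey points all genes at 1 FPKM or more, and dotted lines mark 2-fold. SCARNA2 and SCARNA7 stand at the lower right, with values over 4 for TDP43 and under -3 for SRSF3.

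The other deposited table holds a signal per gene for the same 4 libraries, normalised by the authors in a unit no source used here names. By the same rule on its values, with 1 added, 3 scaRNAs were higher and 4 lower for TDP43 (10.8% and 12.8% of 14586 genes at a signal of 1 or more), and 0 were higher and 8 lower for SRSF3 (8.17% and 6.88%). For TDP43 the counts were 5 higher and 14 lower among H/ACA snoRNAs and 6 and 6 among C/D snoRNAs. For SRSF3 they were 5 higher and 14 lower among H/ACA and 4 and 16 among C/D snoRNAs. Medians in that table were -0.18 and -1.70 for scaRNAs, -0.33 and -0.09 for H/ACA snoRNAs and 0.03 and -0.41 for C/D snoRNAs, TDP43 before SRSF3. The order of the class medians was the same in both tables for SRSF3, while for TDP43 the scaRNA median lay under that of H/ACA snoRNAs in the FPKM table and over it in the second.

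Counting a member only where both tables passed the rule left for TDP43 3 higher and 4 lower scaRNAs, 4 and 10 H/ACA snoRNAs, and 5 and 3 C/D snoRNAs. For SRSF3 it left 0 and 8 scaRNAs, 5 and 9 H/ACA snoRNAs, and 3 and 11 C/D snoRNAs. Of all 11530 genes at 1 FPKM or more, 1099 were higher and 1044 lower in this way for TDP43, and 798 and 467 for SRSF3. Of 532 other short genes, 67 were higher and 106 lower for TDP43, and 66 and 72 for SRSF3. The 3 higher scaRNAs were SCARNA2 (signal 8949 in the TDP43 RIP and 513 in its input), SCARNA7 (1699 and 67.7) and SCARNA9 (123 and 4.98). SCARNA9 thus had a higher input value in the second table than its 1.08 FPKM, and a log2 difference there of 4.38. SCARNA22 lost its place, with a signal of 12.7 in the TDP43 RIP and 8.05 in its input (0.59), and 17.04 in the SRSF3 RIP and 17.15 in its input (-0.01). SCARNA21 also fell under 2-fold for TDP43 in the second table once 1 was added. Without an added value its log2 ratios there were 1.04 for TDP43 and 0.78 for SRSF3. SCARNA6 changed sign for TDP43, with a signal of 3.51 in the RIP and 2.87 in its input. In the authors' deposited FPKM table the log2 ratios of TDP43 RIP over input, without an added value, were 4.25 for SCARNA2, 4.77 for SCARNA7 and 6.56 for SCARNA9.

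**Figure D3:**
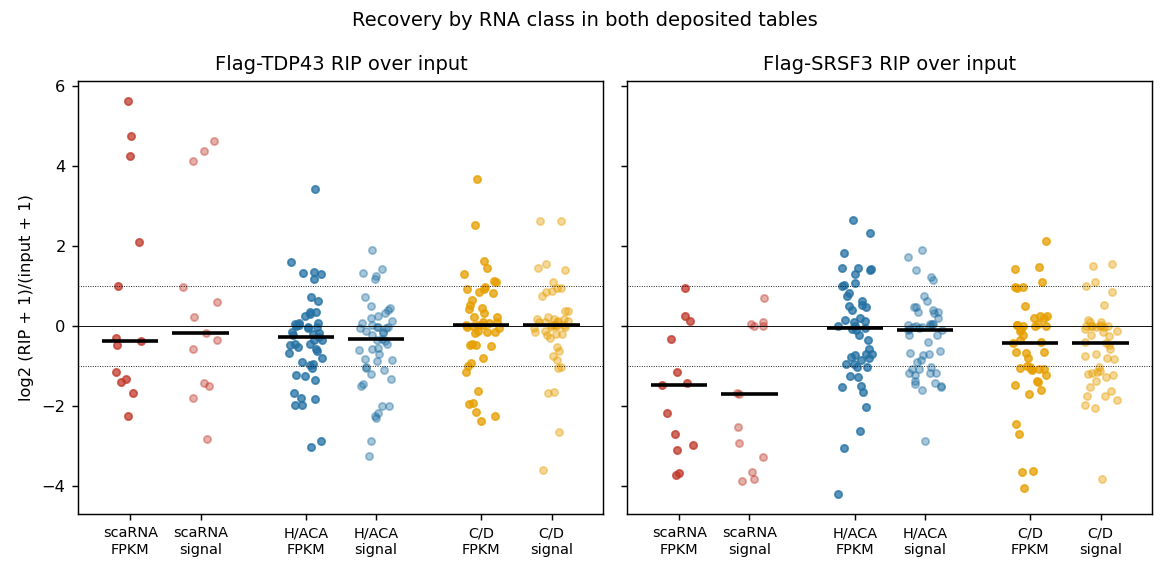
Log2 of RIP over input after adding 1, by class and deposited table (FPKM, darker, and the second table's signal, paler), for TDP43 (left) and SRSF3 (right). Points are genes, bars medians and dotted lines 2-fold; 3 scaRNA points stand over 4 in both tables for TDP43, and scaRNA medians for SRSF3 are -1.48 and -1.70.

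Among H/ACA snoRNAs, SNORA71A, a small-subunit rRNA guide in SNHG17, was the highest in the TDP43 RIP, with 16.3 FPKM and 0.594 FPKM in its input (log2 difference 3.44). The input value stands for 2.26 read equivalents, and the interval of the ratio of 27.4 ran from 7.76 to 193. In the SRSF3 RIP it had 4.79 FPKM and 1.19 FPKM in its input (1.403), but in the second table the sign turned, at -0.71. SNORA71A has close copies in the same host, so its level is uncertain. SNORA17B, in SNHG7, had 9.67 FPKM in the TDP43 RIP and 2.53 FPKM in its input (1.59), against 2.78 FPKM in the SRSF3 RIP and 5.84 FPKM in its input (-0.86).

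Lower in both RIPs were the U17 snoRNAs, which take part in cleavage of the rRNA precursor and lie in introns of RCC1. SNORA73A had 5.33 FPKM in the TDP43 RIP and 45.1 FPKM in its input, 8.48-fold lower (5.81 to 12.8), and 1.92 FPKM in the SRSF3 RIP and 52.5 FPKM in its input, 27.4-fold lower (15.1 to 55.5). In the second table SNORA73A was at 0.228 in the SRSF3 RIP and 0.434 in its input, so a 2-fold lower level there rests on the FPKM table alone. SNORA73B had 3.77 FPKM in the TDP43 RIP and 17.7 FPKM in its input (-1.97), and 11.9 FPKM in the SRSF3 RIP and 35.3 FPKM in its input (-1.50), with second-table values of -2.25 and -1.60. SNORA18, in TAF1D, was at 0.0607 FPKM in the TDP43 RIP and 7.54 FPKM in its input (-3.01), and at 2.71 FPKM in the SRSF3 RIP and 7.87 FPKM in its input (-1.26).

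SNORA28, an rRNA guide in EIF5, stood on opposite sides of its input in the 2 RIPs. It had 0.0259 FPKM in the TDP43 RIP and 1.39 FPKM in its input (-1.22), and 11.5 FPKM in the SRSF3 RIP and 1.498 FPKM in its input (2.32), 7.65-fold higher (3.09 to 23.8). The second table gave -0.16 for TDP43 and 1.73 for SRSF3, so the higher value with SRSF3 stood in both tables and the 2-fold lower value with TDP43 in the FPKM table alone. Among abundant H/ACA snoRNAs with small differences, SNORA57 had 13.4 FPKM in the TDP43 RIP and 12.7 FPKM in its input, and 26.7 FPKM in the SRSF3 RIP and 24.9 FPKM in its input. SNORA25 had 5.75 FPKM in the TDP43 RIP and 7.61 FPKM in its input, and 22.4 FPKM in the SRSF3 RIP and 12.2 FPKM in its input. SNORA24 had 7.83 FPKM in the TDP43 RIP and 7.73 FPKM in its input, and 20.4 FPKM in the SRSF3 RIP and 34.5 FPKM in its input. None of these 3 reached 2-fold in either RIP by FPKM. In the second table SNORA24 was 2-fold lower with SRSF3 (signal 15.0 in the RIP and 40.3 in its input, -1.37), and SNORA57 and SNORA25 stayed within 2-fold in both RIPs.

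The other H/ACA snoRNAs with a mean of 5 FPKM or more in a RIP and its input differed in direction. SNORA50C had 3.45 FPKM in the TDP43 RIP and 16.5 FPKM in its input (-1.98), and 18.4 FPKM in the SRSF3 RIP and 36.4 FPKM in its input (-0.94). SNORA12 had 6.97 FPKM in the TDP43 RIP and 11.6 FPKM in its input (-0.66), and 2.399 FPKM in the SRSF3 RIP and 9.58 FPKM in its input (-1.64). SNORA67, SNORA61 and copies of SNORA74 and SNORA21 completed the set. SNORA67 was at -0.45 for TDP43 and -1.02 for SRSF3, SNORA61 at -0.02 and -0.57, SNORA74 (ENSG00000252213) at -1.68 and -1.51, and SNORA21 (ENSG00000199293) at 1.31 and 0.20 on the log2 scale. SNORA21 was thus higher in the TDP43 RIP, with 5.78 FPKM there and 1.73 FPKM in its input. With SRSF3 it had 9.52 FPKM in the RIP and 8.18 FPKM in its input, with an interval that spans equality. SNORA61 reached the mean of 5 FPKM with SRSF3 only. It had 0.0807 FPKM in the TDP43 RIP and 0.0924 FPKM in its input, each under 1 read equivalent. Its difference for TDP43 was thus held near 0 by the added 1 FPKM and cannot show whether it was recovered. SNORA74 and SNORA21 each have another identifier with the same symbol, so reads may be split between copies.

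Among C/D snoRNAs, SNORD15B, an rRNA methylation guide in RPS3, was the highest in the TDP43 RIP, with 24.3 FPKM and 0.970 FPKM in its input (3.68), a ratio of 25.1 (9.51 to 93.3). In the SRSF3 RIP SNORD15B had 0.894 FPKM and 3.44 FPKM in its input (-1.23). In the second table the differences were 2.62 and -1.74, so it was high with TDP43 and low with SRSF3 in both tables. SNORD118, the U8 snoRNA that takes part in processing of large-subunit rRNA, was low in both RIPs. It had 1.98 FPKM in the TDP43 RIP and 12.1 FPKM in its input (-2.14), and 0.178 FPKM in the SRSF3 RIP and 18.4 FPKM in its input (-4.04), with -3.61 and -3.83 in the second table.

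The U3 snoRNA, which acts in small-subunit rRNA processing, had the highest input level of these C/D snoRNAs. SNORD3A had 242 FPKM in the TDP43 RIP and 179 FPKM in its input, 1.35-fold higher (1.29 to 1.41), and 124 FPKM in the SRSF3 RIP and 248.1 FPKM in its input, 1.99-fold lower (1.90 to 2.09). Its copies SNORD3B-1, SNORD3B-2, SNORD3C and SNORD3D have near-identical sequence, so the split of reads among them is uncertain. SNORD3B-2 had 2.42 FPKM in the TDP43 RIP and 3.78 FPKM in its input, and 6.98 FPKM in the SRSF3 RIP and 98.2 FPKM in its input. SNORD3C had 12.5 FPKM in the TDP43 RIP and 7.61 FPKM in its input, and 2.91 FPKM in the SRSF3 RIP and 46.7 FPKM in its input. SNORD3B-1 was at 0.24 log2 for TDP43 and -1.70 for SRSF3, and the SNORD3D identifiers at 0.11 and 0.04 for TDP43 and -1.09 and -1.05 for SRSF3. By FPKM all U3 copies were thus lower in the SRSF3 RIP than in its input, while in the TDP43 RIP they lay within 2-fold of it. In the second table SNORD3C was within 2-fold for SRSF3 (-0.82), and SNORD3D (ENSG00000277947) was listed at 0 in all 4 libraries.

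Few other C/D snoRNAs reached a mean of 5 FPKM. SNORD104, in the span of SNHG25, had 1.14 FPKM in the TDP43 RIP and 10.1 FPKM in its input (-2.37), and 12.04 FPKM in the SRSF3 RIP and 14.1 FPKM in its input (-0.21). SNORD43 had 3.12 FPKM in the TDP43 RIP and 7.24 FPKM in its input, and 6.17 FPKM in the SRSF3 RIP and 5.22 FPKM in its input (0.20), but in the second table it was 2-fold lower with SRSF3 (signal 2.39 in the RIP and 6.38 in its input, -1.12). SNORD88B had 2.15 FPKM in the TDP43 RIP and 3.44 FPKM in its input, and 2.17 FPKM in the SRSF3 RIP and 8.51 FPKM in its input. SNORD32A had 1.16 FPKM in the TDP43 RIP and 0.000176 FPKM, under 1 read, in its input (1.11), a value that the second table turned round (-1.64), and had 21.5 FPKM in the SRSF3 RIP and 17.9 FPKM in its input (0.25).

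Length moved with class and with the result for SRSF3. Of the 20 members of 200 bases or longer, 15 were lower and 0 higher in the SRSF3 RIP (median -1.60), of the 58 members of 100 to under 200 bases 16 were lower and 11 higher (-0.16), and of the 30 shorter members, all C/D, 6 were lower and 4 higher (0.01). Within the longest set the medians for SRSF3 were -2.71 for 9 scaRNAs, -1.15 for 4 H/ACA snoRNAs and -1.70 for 7 C/D snoRNAs. Those 7 C/D snoRNAs are SNORD17 and the identifiers of the U3 snoRNA, among which the split of reads is uncertain. The 9 scaRNAs include SCARNA10 under both of its overlapping identifiers. These members are thus not separate RNAs throughout. For TDP43 the medians by length were -0.01, -0.21 and -0.01 from the longest set to the shortest. The part of length in the class differences was not tested.

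The span of a host gene held 97 of the 108 members, in 74 hosts. Only longer genes were taken as hosts, so SNORD104 and SNORA50C, inside SNHG25 (507 bases), count as having none. Reads of unspliced host RNA cannot be told apart from reads of the RNA inside it in these tables. Across those 97 the member's log2 difference went with that of its host with a Pearson correlation of 0.0959 and a Spearman correlation of 0.120 for TDP43, and of 0.0244 and 0.0443 for SRSF3. Points share the same 2 libraries and members of 1 host share its value. For TDP43 22 members stood 2-fold or more over their host and 28 as far under it, and for SRSF3 19 and 31. KPNA4, the host of SCARNA7, had 53.8 FPKM in the TDP43 RIP and 8.61 FPKM in its input (2.51), and 6.25 FPKM in the SRSF3 RIP and 7.94 FPKM in its input (-0.30). CEP295, the host of SCARNA9, had 0.0286 FPKM in the TDP43 RIP and 0.757 FPKM in its input (-0.77), and 1.99 FPKM in the SRSF3 RIP and 1.48 FPKM in its input (0.27). RPS3, the host of SNORD15B, was at -1.47 for TDP43 and -1.78 for SRSF3. SCARNA7 was thus higher together with its host in the TDP43 RIP, and SCARNA9 and SNORD15B were higher where their hosts were lower.

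**Figure D4:**
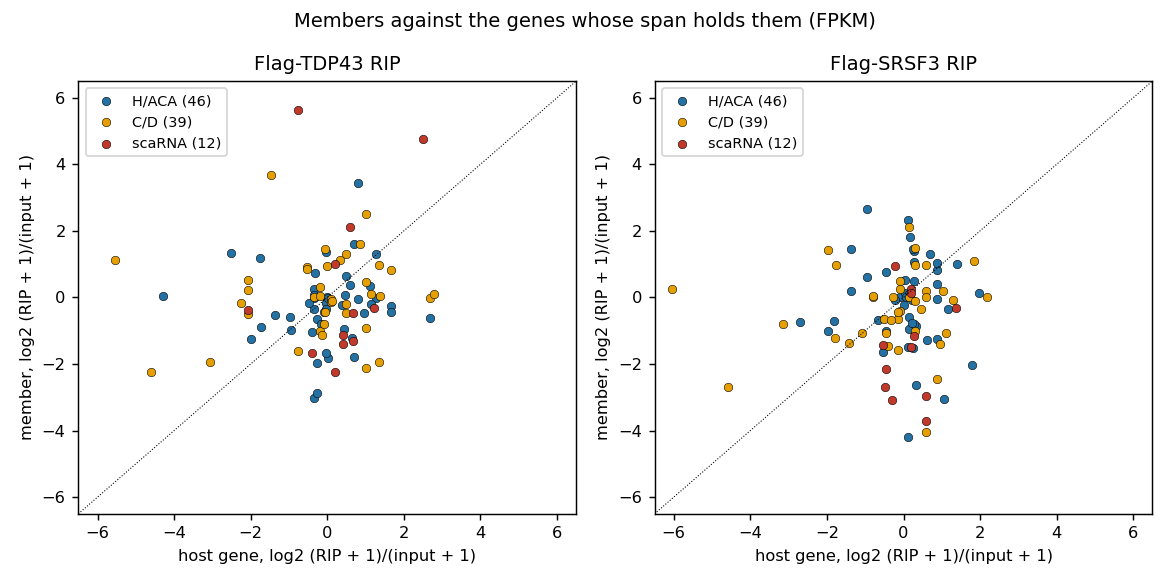
Log2 of RIP over input after adding 1 FPKM for the host gene (x axis) and for the member inside it (y axis), TDP43 left and SRSF3 right; the dotted line marks equality. Of 97 members with a host, 22 lie 2-fold or more over the line for TDP43 and 28 as far under it.

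The second question was whether the protein genes and host RNAs of this machinery moved when TDP43 or SRSF3 was depleted. The knockdown table, counted on protein-coding and lincRNA genes, holds 0 of the 108 members, so their own levels in the knockdowns were not analysed here. TARDBP was at 32.9 ± 2.23 CPM in sh_TDP43 and 146 ± 30.8 CPM in sh_control (CPM are counts scaled to library depth by TMM; SD, n = 2 each), and SRSF3 was at 62.9 ± 1.63 CPM in sh_SRSF3 and 431 ± 38.9 CPM in sh_control. Each hairpin also went with less RNA of the other target. SRSF3 was at 184 ± 5.01 CPM in sh_TDP43, where it fell by 1.23 (log2, SE 0.10, edgeR adjusted p = 3.05e-07), and TARDBP was at 105 ± 4.52 CPM in sh_SRSF3, where it fell by 0.48 (SE 0.12, edgeR adjusted p = 0.00326), a call that ended without sh_control replicate 1 (-0.25). Of the markers named above, VIM, CD44, KRT8 and KRT18 were at 327 to 2342 CPM in sh_control. COL1A1 was at 15.2 and GATA3 at 10.9 CPM there, though CPM are not scaled by length. CDH1, at 1.27 CPM in sh_control, rose by 1.04 in sh_TDP43 (SE 0.24) and by 3.59 in sh_SRSF3 (SE 0.23). PTPRC, at 0.528 CPM in sh_control, changed by 1.92 in sh_TDP43 (SE 0.51) and by -1.59 in sh_SRSF3 (SE 0.66). In bulk RNA, fewer cells that make an RNA and less of it per cell cannot be told apart.

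Of 40 genes for snoRNP and scaRNP proteins, their assembly factors, Cajal body proteins and snoRNA 3′ processing enzymes, 6 rose and 10 fell in sh_TDP43 (edgeR quasi-likelihood test, Benjamini-Hochberg adjusted p under 0.05 over 15026 genes), against 20.7% and 24.1% of all genes (44.8% in either direction). The median log2 change was -0.17, beside 0.00 for all genes. In sh_SRSF3 20 rose and 9 fell, against 32.5% and 34.4% of all genes (66.9% in either direction), with a median of 0.35 beside -0.03. With upper-quartile scaling the count in sh_TDP43 was 7 higher and 7 lower, and in sh_SRSF3 20 and 9. Without sh_TDP43 replicate 2, the count in sh_TDP43 was 4 higher and 4 lower.

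COIL, the gene of coilin, the scaffold protein of Cajal bodies, had 54.3 and 56.9 CPM in the sh_TDP43 libraries, 21.6 and 19.2 CPM in the sh_SRSF3 libraries and 32.8 and 26.5 CPM in the sh_control libraries. It rose by 0.91 in sh_TDP43 (log2, SE 0.12, edgeR adjusted p = 4.3e-05) and fell by 0.54 in sh_SRSF3 (SE 0.12, edgeR adjusted p = 0.00162). COIL RNA thus lay over both control libraries in sh_TDP43 and under both in sh_SRSF3. GEMIN4, of the SMN complex that assembles snRNPs, had 57.0 and 50.4 CPM in sh_TDP43, 43.7 and 40.1 CPM in sh_SRSF3 and 111 and 102 CPM in sh_control. It fell by 0.99 in sh_TDP43 (SE 0.10) and by 1.35 in sh_SRSF3 (SE 0.10; edgeR adjusted p = 4.23e-06 and 5.98e-08). GEMIN2, another SMN complex gene, changed by -0.51 in sh_TDP43 (SE 0.14) and by 1.23 in sh_SRSF3 (SE 0.14), with 9.82 and 9.89 CPM, 29.95 and 35.98 CPM, and 15.0 and 13.2 CPM in sh_TDP43, sh_SRSF3 and sh_control. The GEMIN2 call in sh_TDP43 ended without sh_control replicate 1 (-0.42) or sh_TDP43 replicate 2 (-0.51).

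The core C/D protein gene NOP56 fell in both knockdowns, by 0.79 in sh_TDP43 (SE 0.11, edgeR adjusted p = 7.6e-05) and by 0.53 in sh_SRSF3 (SE 0.11, edgeR adjusted p = 0.000841). It was at 171 ± 11.5 CPM in sh_TDP43, 205 ± 28.5 CPM in sh_SRSF3 and 296 ± 31.9 CPM in sh_control (SD, n = 2 each). The lists below are small, and their counts stand beside the 44.8% of all genes called in sh_TDP43 and the 66.9% called in sh_SRSF3. Of the 6 H/ACA protein and assembly genes, 4 rose and 0 fell in sh_SRSF3, while 1 rose and 2 fell in sh_TDP43. DKC1 (dyskerin) changed by -0.42 in sh_TDP43 and 0.75 in sh_SRSF3, and the assembly factor gene NAF1 rose in both, by 0.42 and 0.73. Of the 4 C/D core protein genes, 0 rose and 1 fell in sh_TDP43, and 2 rose and 1 fell in sh_SRSF3. Of 8 C/D assembly factor genes, 1 rose and 0 fell in sh_TDP43, and 3 rose and 1 fell in sh_SRSF3, where RPAP3 fell by 1.04 (SE 0.11). Of 16 Cajal body protein genes, 3 rose and 5 fell in sh_TDP43, and 9 rose and 4 fell in sh_SRSF3, where GEMIN8 rose by 1.16 (SE 0.20). SMN1 and SMN2 are near-identical copies, and their counts are uncertain.

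Of 6 genes of snoRNA 3′ end processing, 1 rose and 2 fell in sh_TDP43, and 2 rose and 3 fell in sh_SRSF3. The exonuclease gene EXOSC10 fell in both, by 0.72 in sh_TDP43 (SE 0.09) and by 0.95 in sh_SRSF3 (SE 0.09). In sh_SRSF3 the nuclease gene DIS3 rose by 1.44 (SE 0.09) and PARN, a deadenylase that trims H/ACA RNA tails, rose by 1.16 (SE 0.11). PABPN1, a nuclear poly(A)-binding protein gene, fell by 0.51 in sh_TDP43 (SE 0.10). Their edgeR adjusted p-values lay between 9.4e-09 for DIS3 and 0.000644 for PABPN1.

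Of 19 noncoding host RNAs of snoRNAs, 6 were in the knockdown table, of which 2 rose and 1 fell in sh_TDP43, and 3 rose and 1 fell in sh_SRSF3. With 44.8% and 66.9% of all genes called, 3 of 6 and 4 of 6 are near the background. Without sh_TDP43 replicate 2, 0 rose and 1 fell in sh_TDP43. SNHG25, whose span holds SNORD104 and SNORA50C, had 4.86 and 3.85 CPM in sh_TDP43, 4.72 and 2.88 CPM in sh_SRSF3 and 11.2 and 7.72 CPM in sh_control. It fell by 1.12 in sh_TDP43 (SE 0.26, edgeR adjusted p = 0.0029) and by 1.32 in sh_SRSF3 (SE 0.26, edgeR adjusted p = 0.000473). EPB41L4A-AS1, the host of SNORA13, rose by 0.54 in sh_TDP43 (SE 0.15) and by 0.76 in sh_SRSF3 (SE 0.15), and the call in sh_TDP43 ended without its replicate 2 (0.28). SNHG15 rose by 1.26 (SE 0.10) and SNHG8 by 0.69 (SE 0.11) in sh_SRSF3. SNHG32 rose by 0.26 (SE 0.09) in sh_TDP43, a call that ended in 5 of the 6 fits with a library left out, all but the one without sh_control replicate 1 (0.17 to 0.28 in those 5).

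**Figure D5:**
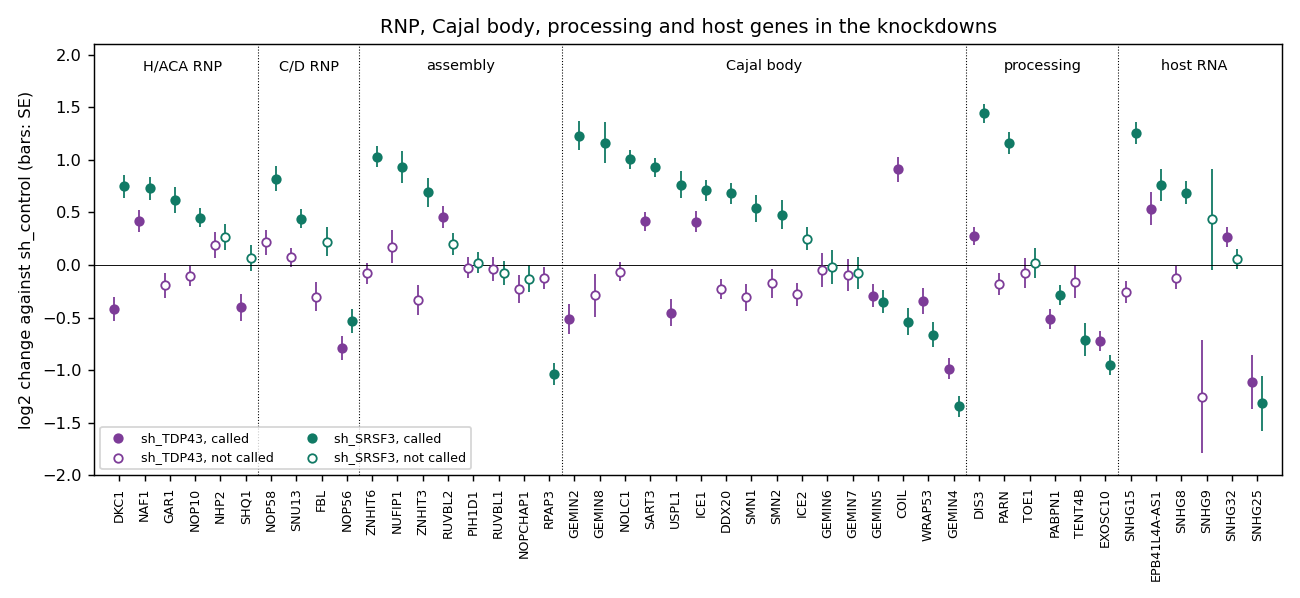
Log2 change of 46 genes of RNPs, Cajal bodies, snoRNA processing and snoRNA hosts in sh_TDP43 (purple, left of each pair) and sh_SRSF3 (green), against sh_control, with bars for the standard error; filled points passed an adjusted p of 0.05. COIL stands at 0.91 in sh_TDP43 and -0.54 in sh_SRSF3, and GEMIN4 under 0 in both.

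Of the 74 longer genes whose span holds a member, 62 were tested. In sh_TDP43 9 were higher and 19 lower, and in sh_SRSF3 25 were higher and 16 lower. The 28 of 62 and 41 of 62 called are close to the 44.8% and 66.9% of all genes. With upper-quartile scaling these counts were 13 and 16, and 16 and 21, so in sh_SRSF3 the larger side changed with the scaling. KPNA4, the host of SCARNA7, had 76.2 and 70.9 CPM in sh_TDP43, 194 and 202 CPM in sh_SRSF3 and 125 and 130 CPM in sh_control. It fell by 0.79 in sh_TDP43 (SE 0.09, edgeR adjusted p = 1.03e-05) and rose by 0.64 in sh_SRSF3 (SE 0.09, edgeR adjusted p = 2.1e-05), so its groups did not overlap. CEP295, the host of SCARNA9, was at -0.25 in sh_TDP43 (SE 0.11, edgeR adjusted p = 0.0803) and rose by 0.36 in sh_SRSF3 (SE 0.11, edgeR adjusted p = 0.00937). Both hosts were chosen because they hold 2 of the scaRNAs described above, after those values were seen.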

How the data were processed

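Groups came from the sample titles. The 108 members, the gene lists and the tests were chosen with earlier results of these data known. For the RIPs the deposited values are FPKM per gene and, in a second table, a normalised signal of unstated unit, per the file headers; each table also holds log2 fold changes by the authors, equal to the log2 ratio of its RIP and input columns. For the knockdowns the deposited values are raw read counts from featureCounts v1.4.6-p5 over exons, with no strand option, on protein-coding and lincRNA genes, per the file headers, and per-sample columns that match no label numbered 2 and were not used, so the combined knockdown was not analysed here. Per the submitters' processing notes the tools were STAR 2.5.2a, StringTie 1.3.0, HISAT2 2.0.5 and Cufflinks and the build GRCh37, but the file each belongs to is not said. RIP coordinates match GRCh38: 102 members matched RefSeq by symbol and chromosome, 92 of them within 10 bases at both ends. Which tool made the RIP tables is stated in no source used here. Libraries were made from total RNA with an Illumina TruSeq RNA kit, per the labels' protocols, and how well it recovers RNAs of 64 bases and more was not tested.

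Differences are log2((RIP + 1)/(input + 1)). With 1 library per group they have no replicate check and no test. Read equivalents are FPKM times length over the FPKM-length step of 1 read (values are fractional, so reads were shared between genes), and intervals are 95% exact binomial intervals on them. Duplicate reads are not independent molecules, so intervals cover counting error only. Box types of scaRNAs, protein lists and roles come from general knowledge. Named are every scaRNA; per class and RIP the 6 highest and 6 lowest members with a mean of 5 FPKM or more and the 5 with the highest input; TERC, RMRP, TARDBP and SRSF3; and per knockdown the called genes of the protein list and of the host RNA list with the 6 largest changes.

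The counts went into edgeR 4.0.16 (R 4.3.3; TMM, filterByExpr, two-sided quasi-likelihood F-test, all 6 libraries, 3 residual degrees of freedom), which left 15026 of 27745 genes. Counted reads per library were 34457445 to 38326930. Within each group the libraries differed beyond sampling noise (a chi-square of 12.0 to 24.6 a gene), and p-values measure the spread between libraries, which may be technical. In simulated data with 14668 genes for sh_TDP43, 47.0%, 82.6% and 96.9% of genes changed 1.5-fold, 2-fold and 4-fold were called, and with 14666 genes for sh_SRSF3 64.1%, 83.6% and 94.2%. False calls numbered 7 and 10. The simulations changed few genes (66, 69 and 65 by fold for sh_TDP43, and 64, 67 and 69 for sh_SRSF3). They also gave all genes the same spread between libraries. The data differ in both, so these shares may not hold for them. DESeq2 1.42.0, other scalings, no filter, a replicate block, each library left out, other pseudocounts and filters and the second table were tried.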

Additional observations from a re-analysis of the deposited data

Results flagged for a closer look

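For 6 of the 108 members RIP over input lay 2-fold or more on opposite sides in the 2 RIPs. Of these, 5 were higher with TDP43 and 1 was higher with SRSF3. Among all 11530 genes at 1 FPKM or more the counts were 177 and 402, and among 532 other short genes 21 and 39. Opposite sides are thus not particular to these RNAs. The difference between the RIPs itself was not tested, since each rests on 1 RIP and 1 input library. As TDP43 less SRSF3 on the log2 scale it was 7.91 for SCARNA2, 7.83 for SCARNA7, 6.78 for SCARNA9, 4.91 for SNORD15B, 3.54 for SCARNA22 and -3.54 for SNORA28. In the second table SCARNA2, SCARNA7, SCARNA9 and SNORD15B kept 2-fold or more on both sides, whereas SCARNA22 (0.59 and -0.01) and SNORA28 (-0.16 and 1.73) did not.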

How the results depend on the processing

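Of 108 class medians and counts recomputed for the RIPs, 79 stayed near the values reported and 29 moved. Counts higher in the TDP43 RIP were 10 H/ACA and 11 C/D with a pseudocount of 0.1, 1 and 2 with a pseudocount of 5, 3 and 2 with a mean of 5 FPKM or more, and 3 C/D at 100 bases or longer; the second table gave 3 scaRNAs. The H/ACA median was 0.00 without the level filter. Counts higher in the SRSF3 RIP were 1 scaRNA and 9 C/D with a pseudocount of 0.1, 2 H/ACA and 0 C/D with a pseudocount of 5, 1 and 0 with a mean of 5 FPKM or more, 0 C/D at 100 bases or longer and 5 H/ACA in the second table. A mean of 5 FPKM or more moved the SRSF3 medians to -0.86 (H/ACA) and -1.07 (C/D), and 100 bases or longer that of C/D to -1.07. Of 3 alternatives chosen after seeing the data, 10 or more read equivalents gave 3 C/D higher for TDP43 with an H/ACA median of -0.59, and 5 H/ACA and 0 C/D higher for SRSF3 with medians of -0.81 and -1.05. Members whose tables lay within 1 log2 gave 3 scaRNAs and 4 C/D higher for TDP43 and 7 H/ACA for SRSF3, and 1 identifier per locus moved none. The cause was not tested. Of 246 values of named members 27 moved, and 3 more that were past 2-fold by FPKM changed sign, in the second table: SNORD32A (-1.64) and SCARNA6 (0.22) for TDP43 and SNORA71A (-0.71) for SRSF3. Another 6 values within 2-fold by FPKM also changed sign there, among them SNORD43 for SRSF3 (-1.12), and 0 changed sign with the other pseudocounts.

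In the knockdowns, leaving out 1 library gave 8 to 18 protein genes and 1 to 3 host RNAs called in sh_TDP43, and 26 to 32 and 4 in sh_SRSF3; the counts of 8 and 1 were without sh_TDP43 replicate 2. Genes holding a member numbered 20 to 30 and 31 to 41. Of 253 values of single genes 9 lost their call, each on leaving out a library, among them TARDBP in sh_SRSF3 (-0.25) without sh_control replicate 1. To see whether replicate numbers pair the libraries, the log2 difference of replicate 1 less replicate 2 in a group was correlated between groups. Correlations were 0.120 (sh_control and sh_TDP43), 0.0755 (sh_control and sh_SRSF3) and 0.0879 (sh_TDP43 and sh_SRSF3). Such low values give little sign of pairing but do not settle it. The replicate block changed no call of a named gene. It gave 7672 genes called against 6728 in sh_TDP43 and 10565 against 10045 in sh_SRSF3. Under upper-quartile scaling all genes together had a median change of 0.09 and -0.19. Depth limits the RIP values most for C/D snoRNAs, of which 18 of 46 had 10 or more read equivalents for TDP43 and 20 for SRSF3.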

Other observations

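Of 18 noncoding hosts of snoRNAs at 1 FPKM or more, 4 were higher and 4 lower by 2-fold in the TDP43 RIP, and 0 were higher and 7 lower in the SRSF3 RIP. Among all genes at that level 14.7% were higher and 12.1% lower for TDP43, and 13.7% higher and 6.32% lower for SRSF3. These counts are by FPKM. In the second table SNHG1 was not higher for TDP43 (-0.21), while EPB41L4A-AS1 was higher (1.49) and SNHG3 lower (-1.58). For SRSF3 SNHG9 was higher there (1.06, against -1.41 by FPKM), and SNHG7 (-1.63) and EPB41L4A-AS1 (-1.15) were lower. SNHG5 had 197 FPKM in the TDP43 RIP and 36.1 FPKM in its input (2.42), and 13.7 FPKM in the SRSF3 RIP and 33.8 FPKM in its input (-1.24). SNHG6 had 84.8 FPKM in the TDP43 RIP and 26.4 FPKM in its input (1.64), and 11.1 FPKM in the SRSF3 RIP and 24.8 FPKM in its input (-1.10). SNHG29 was lower in both, with 5.60 FPKM in the TDP43 RIP and 54.2 FPKM in its input, and 21.3 FPKM in the SRSF3 RIP and 74.4 FPKM in its input. These 3 were chosen after their values were seen.

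Messenger RNAs of the same machinery can be set beside them. Of 15 Cajal body protein genes at 1 FPKM or more, 6 were higher and 1 lower in the TDP43 RIP, and 1 was higher and 0 lower in the SRSF3 RIP, beside the same 14.7% and 12.1% of all genes for TDP43 and 13.7% and 6.32% for SRSF3. The 6 include the near-identical copies SMN1 (1.92) and SMN2 (2.11), whose split of reads is uncertain. In the second table SART3 was under 2-fold for TDP43 (0.92), and WRAP53 (-1.30) and GEMIN7 (-1.75) were lower. For SRSF3 WRAP53 was under 2-fold there (0.76), and GEMIN2 (-1.01) and GEMIN6 (-1.16) were lower. COIL mRNA had 14.04 FPKM in the TDP43 RIP and 5.79 FPKM in its input (1.15), and 3.41 FPKM in the SRSF3 RIP and 6.86 FPKM in its input (-0.83). PARN mRNA had 29.0 FPKM in the TDP43 RIP and 3.40 FPKM in its input (2.77). NOP10 mRNA had 16.3 FPKM in the TDP43 RIP and 87.2 FPKM in its input (-2.35), and 349 FPKM in the SRSF3 RIP and 88.5 FPKM in its input (1.97). PARN and NOP10 were chosen after their values were seen.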
